A study of Sus scrofa with 6 samples.

Results

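Ribosomal DNA, the genes for 18S, 5.8S and 28S ribosomal RNA, appears on chromosome 6 of the pig genome used by the authors as a short array, and small RNA from piglet duodenum was counted along it. The array was taken as all listed windows of 201 bases on chromosome 6 that started at or above 242000 and ended at or below 262000. Over the 6 libraries, 252 distinct windows out of 37784 met that rule. They ran from base 242804 to base 261762 and a library listed between 31 and 76 of them. Members were chosen by position alone and no measured value entered the rule.

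RNA polymerase I transcribes ribosomal DNA in the nucleolus as a single long precursor. From its 5′ end the precursor carries an external transcribed spacer, 18S, the internal transcribed spacer ITS1, 5.8S, ITS2, 28S and a further external spacer. The spacers are cut away and degraded, 18S goes to the small ribosomal subunit, and 5.8S and 28S go to the large one. Because rRNA makes up most of the RNA of a cell, pieces of it are common in libraries of small RNA from tissue.

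The study sequenced small RNA from the duodenum of Sutai pigs, a Chinese breed, at 28 days of age. It set piglets that are resistant to F18-fimbriated Escherichia coli against piglets that are sensitive to it, by genotype at the M307 site of FUT1, a fucosyltransferase gene. Resistant animals carried AA (numbered 524 and 2129) and sensitive ones GG (numbered 512, 2134 and 2383). Per the labels, 524 had a full sib in 512 and 2129 had one in 2134, while the AA sib of 2383 is not analysed here. All animals were housed alike per the labels, the tissue was frozen in liquid nitrogen, and RNA was taken out with Trizol. Piglet 512 was sequenced in 2 runs, which were summed as 1 animal wherever genotypes were compared, so n was 2 AA and 3 GG. Duodenal tissue holds many cell types, so a change in cell types and a change in RNA per cell cannot be told apart. Markers of intestinal cells were not analysed here.

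The libraries differed in depth and in other RNA. Total listed counts were 56334 and 127075 in AA piglets 524 and 2129, 96244 and 89996 in runs 1 and 2 of piglet 512, 192861 in piglet 2134 and 42354 in piglet 2383. Mitochondrial RNA took 8.16% to 9.35% of the count in 524, 2129 and both runs of 512, but 1.66% in 2134 and 1.97% in 2383. Windows with fewer than 5 counts are not in the lists, so an unlisted window had few counts or none.

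The parts of the array were placed by recognising the conserved ends of mammalian rRNA in the deposited sequence, because no gene annotation for the build of the files was at hand here. Most of the array was a unit on the minus strand that runs, from low to high coordinates, against the direction of transcription. It held a stretch downstream of 28S (247362 to 248081), 28S (248082 to 252731, 4650 bases), ITS2 (252732 to 255068), 5.8S (255069 to 255225, 157 bases), ITS1 (255226 to 257593), 18S (257594 to 259463, 1870 bases) and the spacer upstream of 18S (259464 to 261762). Below it lay a broken second unit on the plus strand, with upstream spacer from 242804 to 246414 and the first bases of 18S from 246415, of which 191 bases were known. Matching the 2 units to each other in words of 31 bases put the first base of the minus-strand 18S at 259463, the same base as placed. Of 2581 such words in the plus-strand spacer, 68.7% occurred inverted in the array. All positions are those of the deposited files, whose genome build is not given in the sources used here.

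The sequences below are the most counted windows of the rRNA parts and of 2 spacers, read 5′ to 3′ along the rRNA strand, with rRNA bases in capitals and spacer bases in lower case. The first shows the 3′ end of 18S running into ITS1 (chr6:257465-257665, minus strand, listed in 3 libraries with 6873 counts summed). The second shows the 5′ end of 18S in the plus-strand copy (chr6:246314-246514, listed in both AA libraries). The third shows 5.8S whole (chr6:255069-255225, minus strand). The 28S stretch lies just above a gap of 100 unknown bases (chr6:249820-249920, minus strand, listed in all 6 libraries). The upstream spacer window (chr6:243245-243445, plus strand) belongs to the one spacer site outside a copy of rRNA that every library listed. The ITS2 window (chr6:253595-253795, minus strand) has an exact second copy within ITS2.
18S 3′ end: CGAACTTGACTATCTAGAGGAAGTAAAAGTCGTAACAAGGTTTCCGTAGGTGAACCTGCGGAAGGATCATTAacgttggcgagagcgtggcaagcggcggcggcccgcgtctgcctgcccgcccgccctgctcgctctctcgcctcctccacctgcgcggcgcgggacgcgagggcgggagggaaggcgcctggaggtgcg
18S 5′ end: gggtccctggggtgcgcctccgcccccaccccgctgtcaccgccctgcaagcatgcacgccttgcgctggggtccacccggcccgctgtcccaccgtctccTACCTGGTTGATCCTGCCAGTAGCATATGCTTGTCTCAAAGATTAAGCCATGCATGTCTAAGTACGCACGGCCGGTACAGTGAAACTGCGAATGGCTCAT
5.8S: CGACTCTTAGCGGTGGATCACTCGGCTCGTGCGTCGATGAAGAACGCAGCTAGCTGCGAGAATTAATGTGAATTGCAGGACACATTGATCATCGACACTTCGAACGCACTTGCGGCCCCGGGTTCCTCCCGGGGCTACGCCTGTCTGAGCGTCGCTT
28S: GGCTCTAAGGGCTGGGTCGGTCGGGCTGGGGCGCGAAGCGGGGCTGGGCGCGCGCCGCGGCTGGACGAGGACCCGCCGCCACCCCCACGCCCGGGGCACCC
upstream spacer: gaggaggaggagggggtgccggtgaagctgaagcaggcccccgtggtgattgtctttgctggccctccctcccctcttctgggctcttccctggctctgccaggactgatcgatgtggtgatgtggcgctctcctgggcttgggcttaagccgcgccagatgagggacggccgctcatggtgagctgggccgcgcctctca
ITS2: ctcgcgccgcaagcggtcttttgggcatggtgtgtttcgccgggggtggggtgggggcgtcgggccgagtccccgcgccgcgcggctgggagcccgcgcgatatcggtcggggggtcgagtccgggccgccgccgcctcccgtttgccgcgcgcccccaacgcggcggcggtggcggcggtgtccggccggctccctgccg

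GC content was high in the array. Its windows had a median GC content of 72.6%, against 46.8% over all 37783 windows of that length. ITS2 (76.2%), ITS1 (74.4%) and the stretch downstream of 28S (78.2%) were richest, 28S had 66.8%, and 5.8S and 18S had 57.3% and 55.2%. The rRNA-coding parts that held most counts were therefore the least GC-rich parts of the minus-strand unit.

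A listed count was read as a cluster of neighbouring reads rather than as a count over 201 bases. The base 100 positions above a window's start behaved as the low end of its cluster. Among 416 windows across the genome with a run of 10 or more unknown bases, none had that base and the 9 above it unknown, and in 14 the unknown run ended just before it. The 28S window above begins with 100 unknown bases and was listed in all 6 libraries. In the array, the 14 clusters with 1000 counts or more lay a median of 1748 bases below the next cluster's low end (933 to 2880). The 193 clusters with fewer than 20 counts lay a median of 134 bases below it (29 to 2050). How far each cluster extended is not in the lists.

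**Figure D1:**
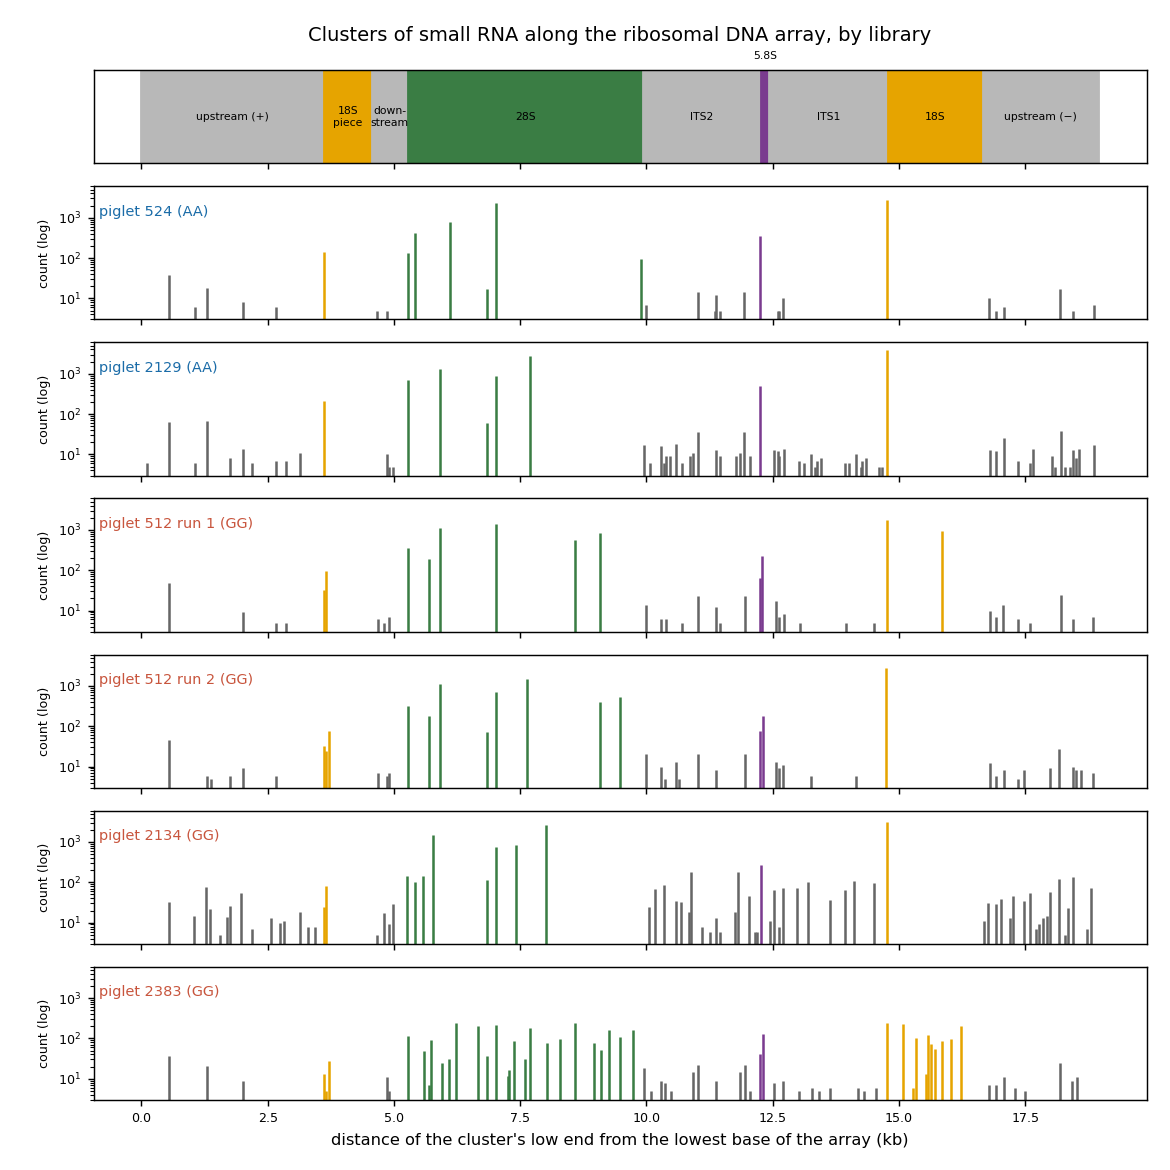
Count of each cluster (vertical log axis) at its low end (horizontal axis, kb from the lowest base of the array) in the 6 libraries, with the parts of the array drawn on top. Coloured lines are clusters in rRNA and grey lines are clusters in spacers; 18S is 1 tall line in 4 of the libraries, 2 lines in run 1 of piglet 512 and 11 short lines in piglet 2383.

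The array held between 6.35% and 12.7% of all listed counts. In AA piglets the share was 12.7% (95% Wilson interval 12.4% to 12.9%) in 524 and 8.75% (8.60% to 8.91%) in 2129. In GG piglets it was 8.09% (7.92% to 8.27%) and 9.19% (8.999% to 9.38%) in the runs of 512, 6.35% (6.25% to 6.46%) in 2134 and 9.63% (9.35% to 9.92%) in 2383. The intervals cover counting error only and are far narrower than the spread between animals. AA piglets averaged 10.7% ± 2.77 (SD, n = 2) and GG piglets 8.20% ± 1.68 (SD, n = 3), a difference of -2.51 percentage points, and the groups overlapped. Leaving out 1 piglet at a time moved this difference between -4.46 and -0.551 points, the latter without piglet 524. No test was run on sums over the members, and the smallest one-sided p that permuting 2 against 3 animals allows is 0.1.

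18S, the RNA of the small subunit, gave the tallest single cluster in every library but that of piglet 2383, where a 28S cluster (240 counts) was above the tallest 18S cluster (234 counts). Its counts were 2716 in 524 and 3923 in 2129, 2627 and 2753 in the runs of 512, 3185 in 2134 and 1211 in 2383. As a share of the array's counts this was 38.1% in 524, 35.3% in 2129, 33.7% and 33.3% in the runs of 512, 26.0% in 2134 and 29.7% in 2383. Both AA piglets lay above every GG library. The means were 36.7% ± 1.98 (SD, n = 2) and 29.7% ± 3.76 (SD, n = 3), a difference of -6.94 points. Within sibs, the GG animal was lower by -4.56 points (512 against 524) and -9.28 points (2134 against 2129).

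The 18S share depends on counting clusters that begin just past its 3′ end as 18S. In 524, 2129, run 2 of 512 and 2134, every 18S count sat in 1 cluster whose low end lay 29, 29, 45 and 32 bases beyond the mature 3′ end, inside ITS1. In run 1 of 512 such a cluster (28 bases beyond) held 65.0% of the 18S count, and in 2383 one (29 bases beyond) held 19.3%. Clusters were given to an rRNA when they began up to 50 bases below its edge. With a reach of 25 bases, or by the low end alone, these clusters went to ITS1 and the difference in the 18S share turned to 9.89 points. The sum of 18S and ITS1, which does not depend on that edge, was 38.4% and 36.6% for AA animals, compared with 34.1%, 31.1% and 31.1% for GG animals 512, 2134 and 2383, again with no overlap (difference -5.36 points).

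28S, the RNA of the large subunit, held the largest share of the array in every library. Its counts were 3715 in 524, 5731 in 2129, 4444 and 4770 in the runs of 512, 6244 in 2134 and 2300 in 2383, or 50.9% to 57.7% of the array. The groups overlapped: AA animals averaged 51.8% ± 0.389 (SD, n = 2) and GG animals 54.9% ± 3.47 (SD, n = 3). Relative to 28S, 18S counts were 0.731 in 524, 0.685 in 2129, 0.591 and 0.577 in the runs of 512, 0.510 in 2134 and 0.527 in 2383. The AA mean ratio was 0.708 ± 0.0329 (SD, n = 2) and the GG mean was 0.540 ± 0.0387 (SD, n = 3), with no overlap, while the runs of piglet 512 differed by less than the nearest AA and GG animals did. The ratio counts clusters that begin just past the edge of 18S as 18S. With a reach of 25 bases, 18S held 0% of the array in AA piglets and a mean of 9.89% in GG piglets. AA piglets then no longer lay above GG piglets. How often ratios of other regions separate the genotypes was not tested. Per kb of gene, with those clusters counted as 18S, 18S exceeded 28S in every library, by 1.27 times in 2134 up to 1.82 times in 524.

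5.8S, the short RNA that pairs with 28S, was the densest part of the array in 5 of the 6 libraries. It had 352 and 485 counts in AA piglets 524 and 2129, 287 and 257 in the runs of 512, 267 in 2134 and 170 in 2383. Per kb it reached 2.81 times the 28S density in 524, 2.51 times in 2129, 1.91 and 1.60 times in the runs of 512, 1.27 times in 2134 and 2.19 times in 2383. In 2134 its density per kb (1701 counts) was level with that of 18S (1703 counts). Its share of the array averaged 4.65% ± 0.406 (SD, n = 2) for AA animals and 3.24% ± 1.002 (SD, n = 3) for GG animals, with piglet 2383 at 4.17% just below 2129 at 4.36%. The runs of 512, at 3.69% and 3.11%, differed from each other by more than 2383 and 2129 did. The lowest 5.8S cluster began 10 or 11 bases past the 3′ end in 5 libraries and 4 bases past it in 2134. Taken at the low end alone, those clusters would fall in ITS2 and the difference in the 5.8S share would be 1.91 points in place of -1.40.

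A partial copy of 5.8S lies inside ITS2, at 254156 to 254288. It was found by 36 shared words of 15 bases over 133 bases. It drew 22 counts in 524 and in 2129, 17 and 8 in the runs of 512, 19 in 2134 and 9 in 2383, far below the 5.8S gene beside it. A cluster at 254189, in this copy, was 1 of only 4 sites in the array that all 6 libraries shared.

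At the 5′ end of 18S in the plus-strand unit, clusters began at nearly the same base in every library. Both AA libraries listed a single cluster from 246414, the last spacer base, with 138 and 206 counts. All 4 GG libraries listed one from 246415, the first base of 18S, with 33 and 32 counts in the runs of 512, 24 in 2134 and 13 in 2383, followed by further clusters between 246449 and 246518. Summed, the stretch had 138 and 206 counts for AA and 126, 133, 106 and 46 for the GG libraries. Its share of the array averaged 1.89% ± 0.0583 (SD, n = 2) for AA animals and 1.20% ± 0.380 (SD, n = 3) for GG animals, with no overlap. These bases also exist at the 5′ end of the minus-strand 18S, so reads from them cannot be assigned to either unit.

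**Figure D2:**
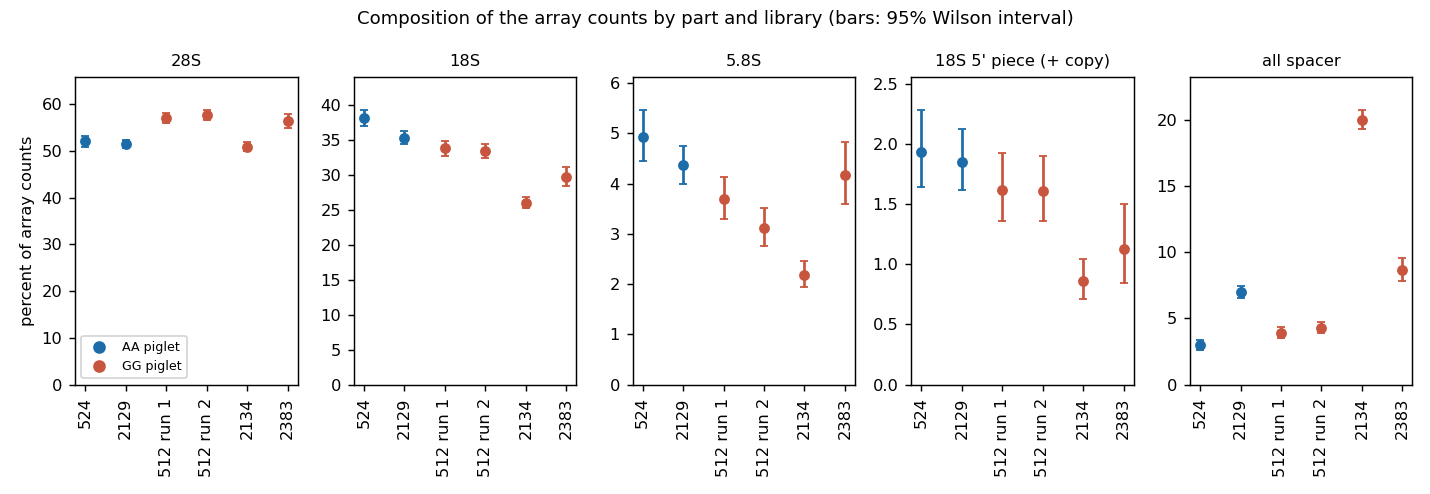
Percent of the array's counts (vertical axes, each from 0) in 28S, 18S, 5.8S, the plus-strand 18S piece and all spacers for each library; points are libraries coloured by genotype and bars are 95% Wilson intervals of counting error. The AA points lie above all GG points for 18S, 5.8S and the 18S piece, and piglet 2134 stands alone at 20.02% for spacers.

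Across the 9 parts, 4 separated the genotypes by share of the array without overlap: 18S, 5.8S and the 18S piece were lower in GG, and the stretch downstream of 28S was higher (0.373% ± 0.128, SD, n = 3, against 0.160% ± 0.0280, SD, n = 2). All 4 differences changed sign when clusters were given to parts by the low end alone. For comparison, among all 2767 units tested genome-wide on scaled counts, 13.2% were lower in GG without overlap and 21.6% were higher. With 2 animals against 3, separation without overlap is thus common in these libraries, and shares within the array also depend on one another because they sum to the whole.

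The transcribed spacers, which are removed from mature rRNA, held a small share of the array in all animals but 1. They took 2.99% of its counts in 524, 6.99% in 2129, 3.90% and 4.28% in the runs of 512, 20.02% in 2134 and 8.63% in 2383. Their share averaged 4.99% ± 2.83 (SD, n = 2) for AA animals and 10.9% ± 8.20 (SD, n = 3) for GG animals, and the groups overlapped. Without piglet 2134 the difference in the spacer share fell from 5.93 to 1.37 points.

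Depth enters this share through the lowest listed count. Piglet 2134 was the deepest library, and weak spacer clusters pass the minimum of 5 more easily there. With the minimum raised in proportion to each library's total, to 22.8 counts in 2134 and 5 in 2383, spacers took 2.19% in 524, 3.11% in 2129, 2.27% in both runs of 512, 17.7% in 2134 and 8.63% in 2383. Piglet 2129 was then near 524 and 512, whereas 2134 and 2383 stayed above all of these. These are also the 2 libraries with low mitochondrial RNA (1.66% and 1.97%); the part of library quality in the spacer share was not tested. Counting windows of identical sequence inside the array once left 18.1% in 2134 and 8.04% in 2383. Pairs with equal counts that were not identical over their whole length were not removed. Among them were ITS2 windows 923 bases apart, at 253538 and 254461 (18 counts each in 2134). Another such pair was at 253729 and 254652 (22 counts each in 2383). Sequence shared, inverted, between the 2 spacers upstream of 18S was not removed either. Repeated counts can therefore remain in these shares.

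The spacers were not alike across libraries. Percents of all listed counts scale for each library's total. Weak clusters still pass the lowest listed count more easily in deeper libraries, so depth can still enter these values. On this scale ITS2 held 0.101% in 524, 0.179% in 2129, 0.0977% and 0.114% in the runs of 512, 0.376% in 2134 and 0.314% in 2383. In the same order ITS1 held 0.0355%, 0.113%, 0.0488%, 0.050002%, 0.328% and 0.132%. The spacer upstream of 18S on the minus strand held 0.0888%, 0.151%, 0.0821%, 0.120%, 0.372% and 0.189%. Piglet 2134 was highest in all 3, with 2383 next and close to it in ITS2. The other 2 spacer parts did not set 2134 apart: upstream on the plus strand it had 0.165%, against 0.158% in 2383 and 0.153% in 2129, and downstream of 28S it had 0.0311%, against 0.0378% in 2383. The ratio of ITS1 to ITS2 counts was 0.871 in 2134 and 0.351 to 0.627 elsewhere. The ratio of upstream spacer counts, minus strand to plus strand, was 2.25 in 2134 and 0.658 to 1.38 in the other libraries. Of words of 31 bases in the plus-strand spacer, 68.7% occur inverted in the array. Reads from such shared sequence cannot be assigned to either unit, so neither this ratio nor the plus-strand share tells the 2 units apart.

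**Figure D3:**
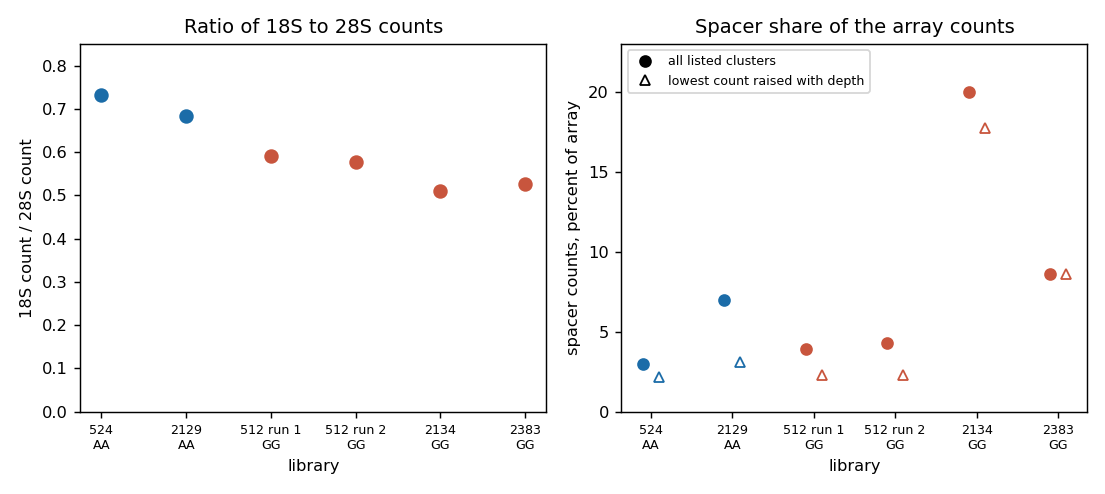
Left, the ratio of 18S to 28S counts for each library; right, spacer counts as a percent of the array, from all listed clusters (filled circles) and with the lowest count raised in proportion to depth (open triangles). With clusters that begin just past the edge of 18S counted as 18S, the AA libraries have the highest ratios (0.731 and 0.685). Piglet 2134 keeps a spacer share of 17.7% with the raised minimum.

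Piglet 2383 differed from the others in how its rRNA counts were spread. Its 5 most counted windows held 28.2% of the array's counts, against 72.9% to 91.6% in the other libraries, and its highest window had 240 counts against 1708 to 3923. 28S was in 23 clusters in 2383 and in 5 to 8 elsewhere. 18S was in 11 clusters, against 1 or 2. Its total was the lowest of the 6, and its 18S and 28S shares of the array (29.7% and 56.4%) lay within the range of the other GG libraries. What sets the number of clusters was not tested.

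Shared cluster positions were few. With low ends within 2 bases counted as one site, the array had 223 sites, of which 160 were in 1 library, 5 in 5 libraries and 4 in all 6. The sites in all 6 were the upstream spacer site at 243345 (33 to 63 counts), the 5′ end of 18S, the base above the gap in 28S at 249820 (214 to 2270 counts), and the 5.8S copy in ITS2 (8 to 13 counts). The 3′ end of 28S, at 248080, was a low end in 5 libraries with 112 to 689 counts, while the lowest 28S cluster of 2134 began at 248061. The other sites in 5 libraries were at the 3′ end of 5.8S (255058, 40 to 485 counts), inside 28S (249655, all 5 piglets, 17 to 113 counts), downstream of 28S (247704, 5 to 9 counts) and in ITS1 (255436, 5 to 9 counts).

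The 2 runs of piglet 512 measure the technical spread. Run 1 listed 41 array windows and run 2 listed 47, of which 17 had the same start. Within 2 bases, 22 windows of run 1 had a match, which held 52.3% of its array counts. For the 17 windows with the same start, the ratio of run 2 to run 1, each as a share of its listed counts, had a median of 1.04 and ranged from 0.276 to 1.53. The 17 include the ITS2 windows at 253728 and 254651, 923 bases apart, which both gave 23 and 21 counts. These windows may hold the same reads, so the 17 may not be independent. The window at the 3′ end of 28S (247980 to 248180) gave 350 and 322 counts, and the one at 248622 gave 1103 and 1112. By contrast, the window at the 28S gap gave 1377 and 699, and the one at 246349 in the 18S piece gave 93 and 24. Sums over the larger parts varied less: 18S took 33.7% and 33.3% of the array, 28S took 57.1% and 57.7%, and all spacers took 3.90% and 4.28%. Among smaller parts, 5.8S took 3.69% and 3.11%, and the minus-strand spacer upstream of 18S took 1.01% and 1.31%. The 18S piece, by contrast, took 1.62% and 1.61%. In run 1 the 18S count was split at 257566 and a second cluster, and in run 2 it was a single cluster. A window can thus change or vanish between runs of 1 animal, here while 18S as a whole kept nearly the same share.

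Regions compared between genotypes were windows joined wherever they overlapped, as scaled counts of the 5 piglets in a limma model fitted to all regions. Of 25 array regions 19 could be tested, among 2777 in all. None of the 19 was called at an adjusted p under 0.05 in the limma fit, against 0% of all tested regions, and none had an unadjusted p under 0.05, against 2.05% lower and 6.84% higher in GG genome-wide. With the sib pair as a block, piglet 2383 was left out. Of the 19 regions, 8 then had a limma unadjusted p under 0.05, all higher in GG, and none was called. Genome-wide 18.2% had such a p, lower and higher together, so it is no share for higher in GG alone. That fit had fewer residual degrees of freedom than the 3 of the fit without the block. Its filter on low counts still used 2383, so the region at 250722 was tested with listed counts in 2134 alone. Without the block, 8 of the 19 were lower in GG and 11 were higher. Among the higher ones, the regions at 250722, 251296, 251665, 252172 and 258243 were unlisted in both AA piglets. They passed the filter on low counts through GG piglets alone and could only come out higher in GG. The direction count and the median over the array include them. The median log2 difference, GG minus AA, was 0.51 over the array and 0.22 over all tested regions. The lowest limma adjusted p in the array was 0.518. Groups did not overlap in 3 of the 19, against 13.1% of all tested regions lower and 21.6% higher. Scaling by total counts alone gave 6 array calls (of 46 among 2777 regions tested). Using no filter on low counts gave 9 (of 71 among 24665). Leaving out piglet 2134 gave 4 (of 4 among 1991), all higher in GG. The regions at 251296, 251665, 252172 and 258243 were unlisted in both AA piglets and in 2134, and were listed in 512 and 2383. Without 2134, such a region has counts in every remaining GG piglet and in no AA piglet.

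The array region with the highest mean, at 256634 to 257666, spans the 3′ end of 18S and part of ITS1. Its scaled counts were 3576 in 524, 3850 in 2129, 2539 in 512, 3060 in 2134 and 391 in 2383. AA values were above all GG values, and piglet 2383 was far below the rest. The log2 difference was -1.36 (SE 0.91, limma adjusted p = 0.544). Without piglet 2383 it was -0.35. The neighbouring 18S region at 258243 to 258931 was listed in neither AA piglet nor in 2134, and had 521 scaled counts in 512 and 689 in 2383 (log2 difference 4.94, SE 2.30, adjusted p = 0.518). The same RNA thus gave the lowest and the highest log2 difference of the array, in neighbouring regions.

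28S behaved in the same way. Its regions at the 3′ end, 247961 to 249139 (log2 difference -0.41, SE 0.45) and 249362 to 249920 (-0.92, SE 0.58), were lower in GG on average. In the second of these, scaled counts were 3011 in 524, 907 in 2129, 1217 in 512, 782 in 2134 and 702 in 2383. Further towards the 5′ end the differences were 2.77 (SE 2.45) at 249963 to 250595, 4.91 (SE 2.44) at 250722 to 250937 and 4.88 (SE 2.28) at 251665 to 252156. The first of these was unlisted in 524, had 2714 scaled counts in 2129, and had 825, 749 and 504 in 512, 2134 and 2383. Its mean scaled count was therefore higher in AA (1357) than in GG (692), against the sign of the log2 difference, which turned to -2.09 without piglet 524. The other 2 were unlisted in both AA piglets but also in a GG piglet each: the region at 250722 had 0 listed counts in 512, 2336 scaled counts in 2134 and 123 in 2383, and the one at 251665 had 718 in 512, 0 listed counts in 2134 and 447 in 2383. A fold against unlisted regions depends on the 2 counts given to them in each library and is no bound. Piglet 512, with 2 libraries, was given them once for each run.

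The remaining regions among the 10 most counted mixed rRNA with spacer. The region at 254461 to 255625, with 5.8S in it, had scaled counts of 508 in 524, 578 in 2129, 370 in 512, 598 in 2134 and 357 in 2383 (log2 difference -0.34, SE 0.34). The region at 252444 to 254366, from the 5′ end of 28S into ITS2, had 183, 159, 86.8, 420 and 391 for the same animals in that order (0.51, SE 0.69). The upstream spacer at 259382 to 261762 had 65.8, 186, 106, 636 and 125 (0.87, SE 0.85). In all 3 the groups overlapped.

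Because a cluster's whole count appeared to go to the window at its low end, the parts were also fitted whole. This alternative was chosen after seeing the data. None of the 9 parts was called by limma, against 0% of the 2767 units tested. The log2 difference was -0.54 (SE 0.33) for 18S, -0.15 (SE 0.34) for 28S and -0.80 (SE 0.24) for 5.8S. Scaled 18S counts were 3577 and 3799 for AA, against 3049, 2827 and 1887 for GG. Scaled 5.8S counts were 464 and 470 for AA, against 308, 237 and 265 for GG. On this scale neither RNA had overlapping groups. Both RNAs include clusters that begin just past their edges. By the low end alone these clusters would go to spacers, and neither RNA would have a count in AA piglets. The fit of whole parts was not repeated with that assignment. As a percent of all listed counts the 5.8S groups did overlap, with 0.401% in GG piglet 2383 above 0.382% in AA piglet 2129. 5.8S (limma unadjusted p = 0.0131) and the 18S piece (-0.93, SE 0.34, unadjusted p = 0.0318) were 2 of 9 parts with an unadjusted p under 0.05, against 2.17% of all units lower in GG and 7.01% higher, and both had a limma adjusted p of 0.519. Spacer differences were 0.93 (SE 0.78) for ITS2, 1.16 (SE 1.10) for ITS1, 0.87 (SE 0.84) upstream of 18S on the minus strand, -0.03 (SE 0.57) on the plus strand and 0.90 (SE 0.47) downstream of 28S.

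**Figure D4:**
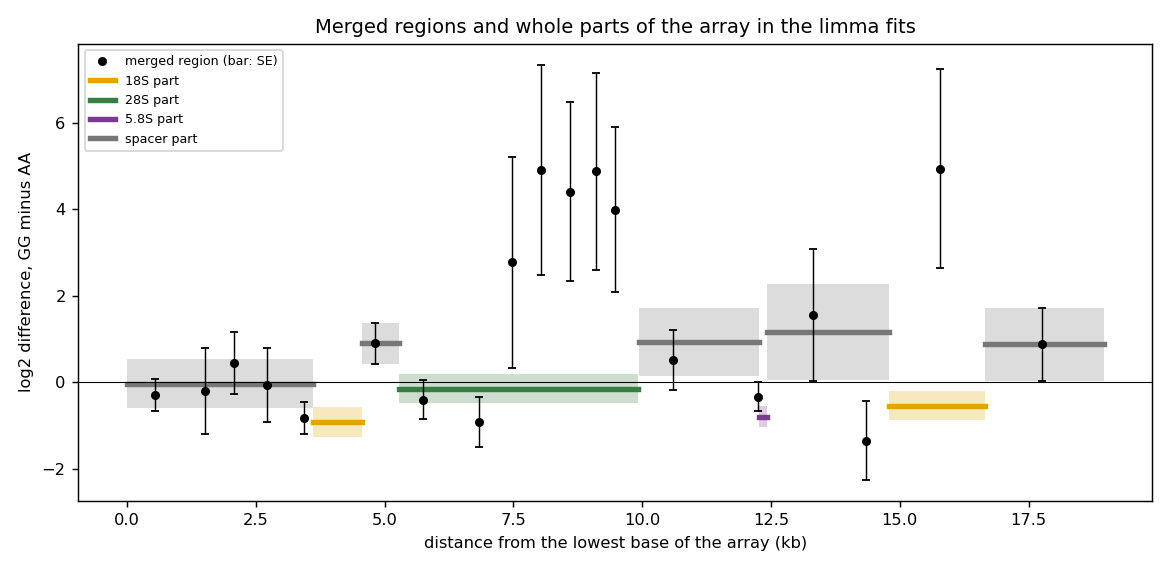
Log2 difference, GG minus AA (vertical axis), of the 19 tested regions (points at their midpoints, bars are SE) and of the 9 whole parts (thick lines over their extent, shading is SE) along the array in kb. The 6 regions that lie above 2 are all inside 28S and 18S, while the 28S and 18S lines lie at -0.15 and -0.54.

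Copies affect what a count can be assigned to. Within the array, 18 windows formed 9 pairs of identical sequence, 923 bases apart in ITS2 and 899 bases apart in ITS1, and the counts of the 2 copies were equal in every library that listed them for 8 of the 9 pairs. Further pairs of windows 923 bases apart in ITS2 and 899 bases apart in ITS1 had equal counts without being identical over their whole length. No array window had an identical window elsewhere in the lists. Windows elsewhere that shared at least 1 word of 31 bases with the array numbered 20 to 43 in a library and had counts equal to 9.27% to 12.4% of the array's. The most counted of them lay on chromosome 7 near 11213511, with 173 counts in 524, 390 in 2129, 202 and 173 in the runs of 512, 245 in 2134 and 90 in 2383.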

How the data were processed

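Small RNA of duodenum was analysed from 6 libraries of 5 piglets, grouped by FUT1 genotype in the labels. The deposited lists give whole-number counts, at least 5, for windows of 201 bases, and the file headers carry each window's position. Aligner, filters, build, strand and the rule for gathering reads are not given in the sources for this work, and the authors' name for the lists calls them unannotated. The members, parts and lists were chosen with earlier results of these data known.

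Parts were placed by eye from conserved rRNA ends. A cluster was given to an rRNA when its low end lay inside it or up to 50 bases below its edge, otherwise to the spacer holding it. Windows overlapping by 1 base or more were merged. Counts were scaled by TMM (trimming 30% of ratios and 5% of abundances), unlisted regions were given 2 counts, and regions with at least 10 counts in at least 2 piglets were tested on log2(scaled count + 1), using the trend of variance with mean in limma 3.58.1 (R 4.3.3), 3 residual degrees of freedom and Benjamini-Hochberg adjustment over all regions. The pseudocount shrinks differences of low regions. The fit was also run on simulated lists with independent counts for each region. Clusters do not shift or split in those lists, so they cannot show how the fit handles such cases in the array. The count models planned as alternatives were not run, because the lists leave out low counts and are not a table of counts. Python 3.11.15, NumPy 2.4.6, SciPy 1.17.1 and matplotlib 3.10.9 were also used.

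Regions named are the 10 with the highest mean scaled count, any with an adjusted or unadjusted p under 0.05, and those with the highest and lowest log2 difference. Sequences shown are the most counted windows of parts. The sib pairing comes from the labels, which name full sibs. Over 2777 regions the differences within genotypes followed the sibs with a Pearson r of 0.21 (across regions, which are not independent). Alternatives are in the closing section.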

Additional observations from a re-analysis of the deposited data

How the results depend on the processing

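Of 474 alternative values for 32 results, most stayed close to the value reported or kept its direction and its side of the threshold. A share could stay close and still change sign. The share of the plus-strand spacer upstream of 18S, GG minus AA, went from 0.305 points to -0.039 without 524 and -0.139 without 2134. The number of array regions called by limma, 0 in the fit reported, was 6 with total counts alone (all higher in GG; 46 of 2777 called genome-wide), 9 with no filter on low counts (3 lower and 6 higher; 71 of 24665 genome-wide) and 1 with single windows, the 18S 5′ end at 246314 to 246514 (log2 difference -5.76, adjusted p = 0.0314; 3 of 2109 genome-wide), which GG libraries list 1 base higher. In the first of these fits and in the one without a filter, limma took every variance from the trend. Leaving out 1 GG piglet gave 0 to 4 calls, the 4, all higher in GG, without 2134 (4 of 1991 genome-wide). Some array regions, such as that at 258243 to 258931, were listed in no AA piglet and in every GG piglet but 2134. With the sib pair as a replicate block, 0 array regions were called (lowest limma adjusted p = 0.112), against 60 of 2777 genome-wide. The block changed no call in the array. With it, 8 of the 19 array regions had a limma unadjusted p under 0.05, all higher in GG, against 0 without it. Genome-wide 18.2% did so with the block, lower and higher together.

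By the low end alone, GG minus AA in points of the array's counts was -1.59 upstream on the plus strand, 1.20 for the 18S piece, -1.13 downstream of 28S, -1.26 for ITS2, 1.91 for 5.8S, -15.2 for ITS1, 9.89 for 18S and -17.5 for all spacers. With a reach of 25 bases it was -15.2 for ITS1, 9.89 for 18S and -10.9 for all spacers. These changes follow from clusters that begin just below the rRNA edges.

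Among the fits of whole parts, the upstream plus-strand log2 difference turned to 0.0020 with run 2 alone, 0.15 with the replicate block, and 0.45, 0.31 and 0.21 without piglets 2129, 512 and 2383. Leaving out 1 piglet gave -0.58 to 0.45 for it, -0.33 to 0.11 for 28S (0.11 without 2383) and -0.10 (without 524) to 2.36 for ITS1. 28S turned to 0.046 with the block. The region at 249963 to 250595 ranged from -2.09 without 524 to 7.56 without 2129; the cause was not tested. The planned edgeR and DESeq2 fits were not run. Depth limits what can be seen of spacers, since clusters under 5 counts are not listed.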
